A study of Homo sapiens with 27 samples.

Results

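The second of the SIRT3 short hairpin RNAs (shSIRT3-2) was compared with a scrambled control hairpin (shCtr) in HBL1, an established diffuse large B-cell lymphoma (DLBCL) line of the activated B-cell-like (ABC) subtype. The comparison was defined by the sample labels and took 6 of the 27 libraries of the series, 3 with shCtr and 3 with shSIRT3-2. Of the 27115 genes listed in each library, the 11659 with a level of at least 1 CPM (the reads of a gene scaled by the total of its library) in at least 3 of these 6 libraries were tested. The whole study knocked SIRT3 down with each of a pair of hairpins in HBL1, Karpas422 and OCI-Ly1 cells and sequenced RNA on day 8 after infection, to search for the pathways that lie downstream of SIRT3. Every group, controls included, received a pLKO.1 lentiviral vector that carries puromycin resistance and a yellow fluorescent protein beside its hairpin, and the lines carry no other engineered allele in the labels. A knockdown in a population of a single cultured line lowers the transcript without removing it and shows neither the response of other ABC lymphomas nor that of tissue.

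SIRT3 is an NAD-dependent deacetylase of the mitochondrial matrix that acts on enzymes of the TCA cycle, of glutamate and fatty acid oxidation and of the respiratory chain. ATF4 is a basic leucine zipper transcription factor whose protein is made when the integrated stress response slows general translation, for example when amino acids run short or the endoplasmic reticulum (ER) is overloaded. It pairs with C/EBP proteins on DNA and drives genes for amino acid synthesis, amino acid import and the charging of tRNAs. ABC lymphomas resemble B cells that have left the germinal centre and started towards the plasma cell, and they depend on NF-kappaB and on B-cell receptor signals.

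Between 28694398 and 53405456 reads per library fell on genes, with a median of 40096444 with shCtr and 47385370 with shSIRT3-2. The HBL1 libraries carried B-cell and ABC markers at high levels, for example MS4A1 (CD20) at 526 to 594 CPM and IRF4 at 343 to 405 CPM in the control libraries. SERPINA9, MME and LMO2, which mark the germinal centre type, stayed below 1 CPM in each of the 6 libraries, while BCL6, another marker of that type, was at 153 to 180.1 CPM in the controls and MYBL1 reached 1.72 CPM with shSIRT3-2. The 12 T and NK cell markers summed to between 22.5 and 24.8 CPM with shCtr and between 16.2 and 17.9 CPM with shSIRT3-2, mostly CD247 at 14.4 to 22.4 CPM, while CD3D and TRAT1 were at 0 in all 6 libraries. The 11 myeloid markers summed to between 0.777 and 1.32 CPM with shCtr and between 0.282 and 0.424 CPM with shSIRT3-2. The 10 epithelial and fibroblast markers summed to between 18.4 and 23.8 CPM with shCtr and between 41.3 and 66.9 CPM with shSIRT3-2. Most of this was COL1A2, at 12.6 to 15.2 CPM with shCtr and 36.8 to 62.0 CPM with shSIRT3-2. EPCAM was at 4.72 to 7.27 CPM with shCtr and 3.50 to 4.27 CPM with shSIRT3-2, while COL1A1 was at or below 0.314 CPM in every library. Replicate 3 of the controls stood apart. The 37 mitosis genes summed to 3636, 3673 and 1930 CPM in shCtr replicates 1 to 3 and to 3229, 3341 and 3241 CPM with shSIRT3-2. Counts of 3 or more list members that moved by over 1.5 times without replicate 3 of both groups are also given without it, and the part of dividing cells in them was not tested. The labels do not say whether replicates were separate cultures, so p-values measure the spread between these libraries. An exact permutation test of 3 against 3 libraries cannot give a p below 0.1, so limma, which shares the spread across genes, was used.

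SIRT3 itself was measured at 13.5, 14.2 and 16.4 CPM with shCtr and 2.84, 3.12 and 3.82 CPM with shSIRT3-2. The groups did not overlap, and the highest knockdown library lay far below the lowest control. The log2 fold change, on log2(CPM + 0.1) and with its standard error after ± here and below, was -2.14 ± 0.14, adjusted p = 9.54e-05 by limma, so that 22.2% of the control level remained. The gene lies on the minus strand of chromosome 11, from 215030 to 236931 on hg19. In bulk RNA, fewer cells expressing a gene and less RNA per cell cannot be told apart, here or in any result that follows.

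ATF4 mRNA was at 279.6, 289 and 342 CPM with shCtr and 139.6, 127 and 158 CPM with shSIRT3-2. It too was lower in each knockdown library than in each control library, at 46.7% of the control level, with a log2 fold change of -1.10 ± 0.11, adjusted p = 0.000402. ATF4 lies on the plus strand of chromosome 22, from 39915700 to 39918688 on hg19. These data count its mRNA and hold no measure of its protein.

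Across the 11659 tested genes, 2174 were called lower (18.6%) and 1077 were called higher (9.24%) with shSIRT3-2, at a fold change above 1.5 and an adjusted p under 0.05 by limma. Each count of list members called against control is to be read beside these shares. The median log2 fold change of all tested genes was -0.06. Lower calls made up 66.9% of all calls, but 50.1% after quantile normalization and 59.2% after median-ratio scaling, so the balance between falls and rises depends on the scaling. Changes of more than 4-fold ran mostly downward, with 203 genes lower and 24 higher. Without replicate 3 of either group the calls were 2007 lower and 901 higher.

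**Figure D1:**
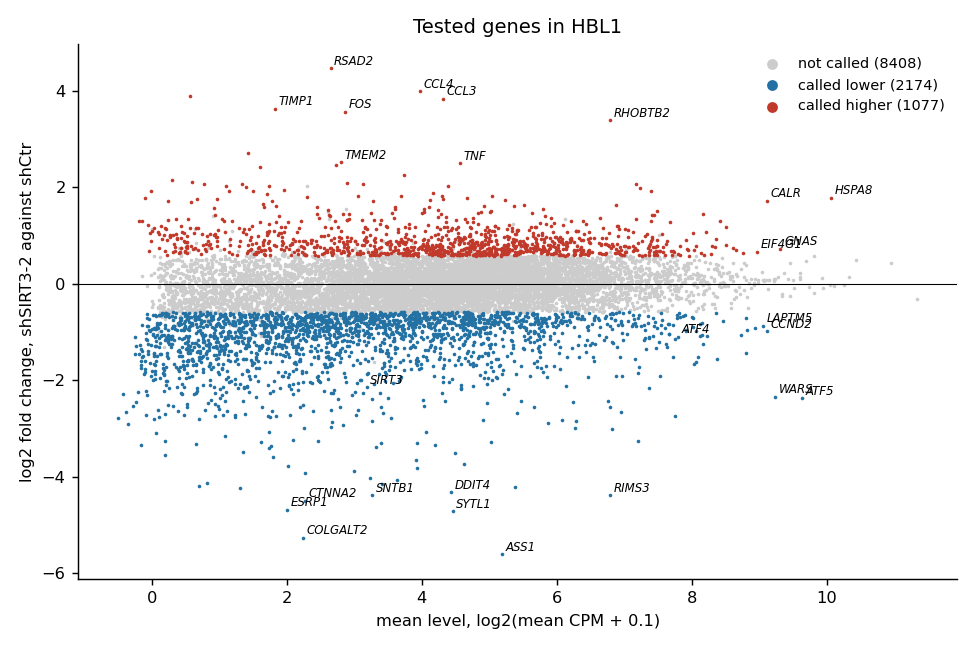
Log2 fold change of each tested gene with shSIRT3-2 against its mean level, as log2(mean CPM + 0.1) over the 6 HBL1 libraries. Blue points are the 2174 genes called lower, red points the 1077 called higher and grey points the rest, and the labelled genes are those named by rule, with ASS1 lowest and RSAD2 highest.

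The steepest fall among genes with at least 5 CPM in a group was that of ASS1, argininosuccinate synthase, the enzyme that lets a cell make its own arginine. It was at 46.8, 62.9 and 104 CPM with shCtr and 1.41, 1.54 and 0.957 CPM with shSIRT3-2. The controls spread widely, yet all lay far above the knockdown libraries, and the log2 fold change was -5.61 ± 0.30, adjusted p = 4.73e-05. COLGALT2, a galactosyltransferase that modifies collagen, fell from 6.84, 9.56 and 11.0 CPM to 0.117, 0.108 and 0.188 CPM (log2 fold change -5.27). CTNNA2, a neuronal alpha-catenin, fell from 9.18, 12.2 and 6.06 CPM to 0.303, 0.308 and 0.272 CPM (log2 fold change -4.50). Neither reached 1 CPM in any knockdown library.

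SYTL1, a Rab27 effector in secretion, was at 26.3, 39.3 and 61.5 CPM with shCtr and 1.48, 1.55 and 1.23 CPM with shSIRT3-2 (log2 fold change -4.72 ± 0.29). RIMS3, a member of the RIM family of active zone proteins, was the most abundant of the 8 largest falls, at 145, 194 and 291 CPM with shCtr and 9.03, 12.5 and 7.73 CPM with shSIRT3-2 (log2 fold change -4.38 ± 0.27). ESRP1, a splicing regulator best known from epithelia, fell by 4.69 on the log2 scale, and SNTB1, a syntrophin that anchors proteins at the membrane, fell by 4.38. DDIT4 (REDD1), an inhibitor of mTORC1 that is also a target of ATF4, was at 47.7, 45.3 and 30.1 CPM with shCtr and 1.62, 1.74 and 2.48 CPM with shSIRT3-2. Its log2 fold change was -4.32 ± 0.22, adjusted p = 4.31e-05. The groups do not overlap in these genes by the rule that named them, and they did not overlap in 61.0% of all tested genes.

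The largest rise was that of RSAD2 (viperin), an interferon-induced antiviral enzyme. It was at 0.640, 0.723 and 0.131 CPM with shCtr and 16.4, 9.59 and 9.48 CPM with shSIRT3-2, and its log2 fold change was 4.47 ± 0.49, adjusted p = 0.000503. The chemokine gene CCL4 rose from 1.92, 1.604 and 1.37 CPM to 28.5, 15.7 and 45.0 CPM and its neighbour CCL3 from 2.49, 2.64 and 1.80 CPM to 33.5, 19.8 and 58.2 CPM. Their log2 fold changes were 3.99 ± 0.35 and 3.83 ± 0.36. Both chemokines have near-identical copies on chromosome 17, so the reads may be shared among the copies and the gene of origin is uncertain. TNF, the founding cytokine of its family, rose from 8.80, 6.08 and 6.33 CPM to 44.6, 34.4 and 41.2 CPM, with a log2 fold change of 2.50 ± 0.17, adjusted p = 9.67e-05.

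TIMP1, an inhibitor of matrix metalloproteinases, rose from 0.376, 0.440 and 0.361 CPM to 5.61, 3.77 and 10.1 CPM (log2 fold change 3.63). FOS, a subunit of the early response factor AP-1, rose from 0.883, 0.535 and 1.11 CPM to 8.20, 5.58 and 26.6 CPM (log2 fold change 3.57, and 2.92 without shSIRT3-2 replicate 3). TMEM2, a cell surface hyaluronidase, rose from 1.56, 1.45 and 2.33 CPM to 8.03, 6.85 and 21.0 CPM (log2 fold change 2.52). In these 3 genes, and in CCL3 and CCL4, shSIRT3-2 replicate 3 was the highest library. RHOBTB2, an adaptor of cullin 3, was more evenly raised, at 18.1, 17.2 and 20.8 CPM with shCtr and 199, 147 and 261 CPM with shSIRT3-2, with a log2 fold change of 3.39 ± 0.20, adjusted p = 6.21e-05.

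**Figure D2:**
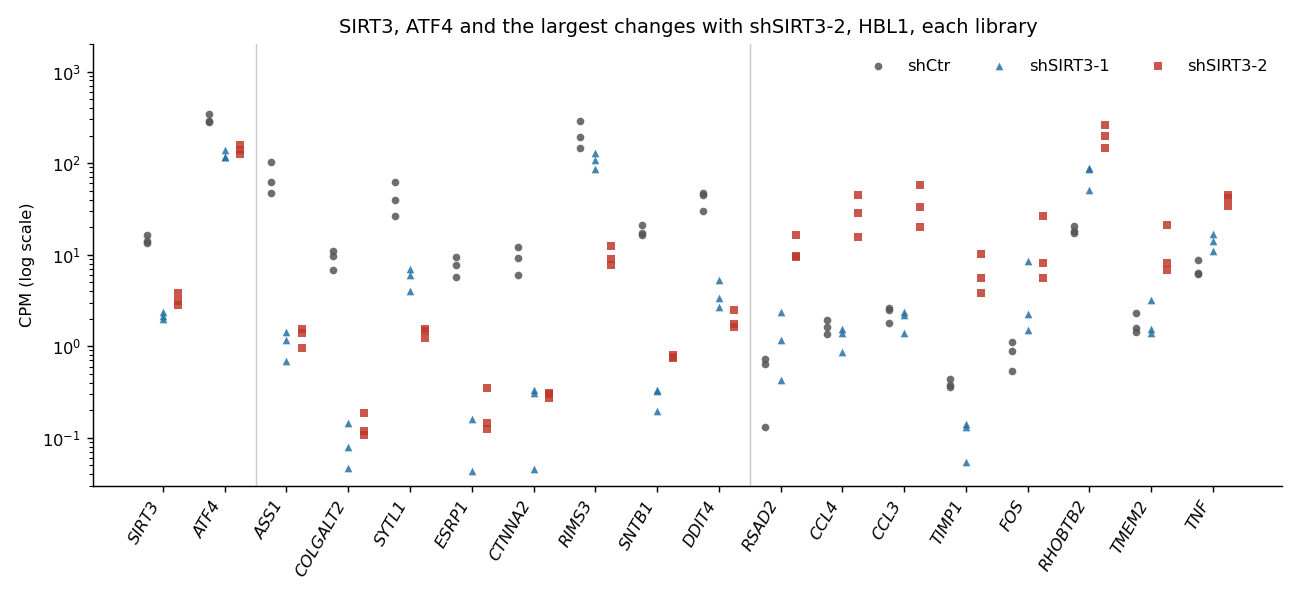
Level in CPM, on a log axis, of SIRT3, ATF4, the 8 largest falls and the 8 largest rises in each of the 9 HBL1 libraries. Circles are shCtr, triangles shSIRT3-1 and squares shSIRT3-2, and the shSIRT3-1 library in which ESRP1 is at 0 is not drawn. SIRT3, ATF4 and the 8 falls lie lower in all 3 shSIRT3-2 libraries than in any control, and CCL3, CCL4 and TIMP1 lie above the control libraries with shSIRT3-2 but not with shSIRT3-1.

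Among the most abundant called genes, those that fell were led by ATF5 and WARS, both known as ATF4 targets. ATF5, a relative of ATF4, was at 1375, 1349 and 1284 CPM with shCtr and 263, 253 and 258 CPM with shSIRT3-2, a log2 fold change of -2.37 ± 0.07, adjusted p = 1.17e-05. WARS, the cytosolic tryptophanyl-tRNA synthetase, was at 885, 1008 and 1126 CPM with shCtr and 228, 199 and 171 CPM with shSIRT3-2, a log2 fold change of -2.34 ± 0.13, adjusted p = 5.47e-05. The cell cycle gene CCND2 (cyclin D2) and the lysosomal membrane protein gene LAPTM5 fell less, by 0.98 and 0.88 on the log2 scale, and CCND2 was not called when the 9 HBL1 libraries were fitted together (adjusted p = 0.222). The most abundant gene that rose was HSPA8, the constitutive HSC70 chaperone, at 579, 473 and 398 CPM with shCtr and 1758, 1765 and 1437 CPM with shSIRT3-2. GNAS, the stimulatory G protein alpha subunit, came next, with a log2 fold change of 0.72 ± 0.11, followed by CALR (calreticulin), an ER chaperone, at 268, 244 and 264 CPM with shCtr and 875, 812 and 872 CPM with shSIRT3-2. EIF4G1, a scaffold of translation initiation, had a log2 fold change of 0.67 ± 0.10.

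The list of integrated stress response and ATF4 target genes held 35 genes, of which 30 passed the filter. Of these 30, 26 were called lower and 1 was called higher. Their median log2 fold change was -2.21, against -0.06 for all tested genes, and their summed level was 3791 to 3954 CPM in the control libraries and 978 to 1094 CPM with shSIRT3-2. The list was chosen with earlier results of these data known, so its direction is a description. Between 25 and 27 members were called lower under every alternative run.

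Within that list, transcription factors and enzymes fell. CTH, cystathionine gamma-lyase of cysteine synthesis, was at 86.4, 87.3 and 62.5 CPM with shCtr and 4.40, 3.94 and 3.90 CPM with shSIRT3-2 (log2 fold change -4.22 ± 0.14). INHBE, an activin subunit that is secreted, was at 23.5, 26.7 and 19.8 CPM with shCtr and 1.24, 1.11 and 1.52 CPM with shSIRT3-2 (log2 fold change -4.07 ± 0.16). Both dropped to a few percent of the control level. The bZIP factors CEBPB, DDIT3 (CHOP), ATF3 and CEBPG had log2 fold changes of -3.30, -2.10, -1.98 and -1.40. The pseudokinase gene TRIB3 and the glutathione-degrading enzyme gene CHAC1 had log2 fold changes of -2.55 and -3.66. SESN2 (sestrin 2), which restrains mTORC1 when leucine is short, was at 198, 214 and 190.1 CPM with shCtr and 27.1, 22.2 and 24.7 CPM with shSIRT3-2 (log2 fold change -3.02). EIF4EBP1, which blocks the cap-binding factor, fell from 52.7 to 13.2 CPM (means of 3), and PPP1R15A (GADD34), which takes phosphate off eIF2alpha, fell from 77.0 to 44.6 CPM.

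The members that did not fall were few. NARS2, JDP2 and RGS2 were not called and had log2 fold changes of -0.39, -0.32 and 0.51. HMOX1, the haem oxygenase that is also a target of NRF2, was the one member called higher, at 2.52, 2.58 and 2.43 CPM with shCtr and 5.86, 3.77 and 18.9 CPM with shSIRT3-2. Its replicate 3 was the highest library, its adjusted p was 0.0418 by limma, and it lost its call in 8 of the 20 alternatives, among them the fit of 9 HBL1 libraries. Its log2 fold change of 1.54 became 0.88 without shSIRT3-2 replicate 3.

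**Figure D3:**
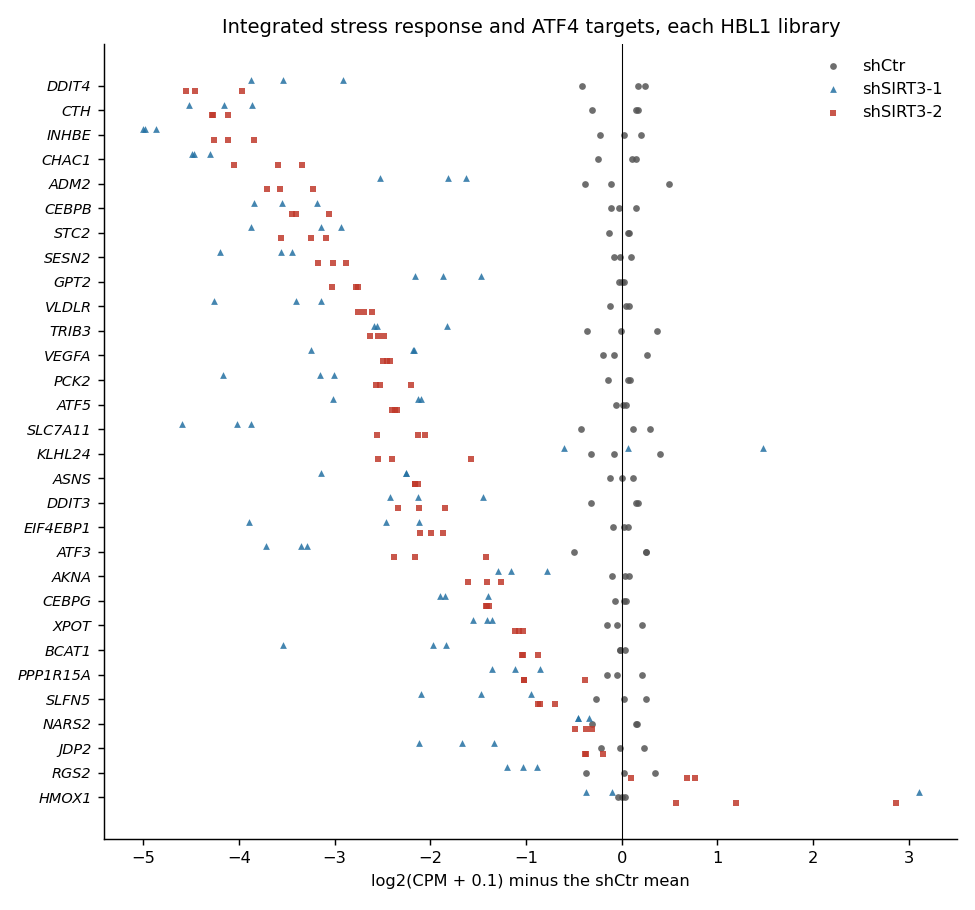
Log2(CPM + 0.1) of the 30 tested integrated stress response and ATF4 target genes in each HBL1 library, minus the mean of the 3 shCtr libraries (circles, shCtr; triangles, shSIRT3-1; squares, shSIRT3-2). Genes run from the largest fall with shSIRT3-2 at the top (DDIT4) to HMOX1 at the bottom, and 26 of the 30 are called lower with shSIRT3-2.

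To show the DNA letters that these gene groups are known for, the 250 bases before each start were searched on both strands in the RefSeq promoter table (GRCh38.p14), which matched 9358 of the 11659 tested genes. The C/EBP-ATF response element was searched as TGATGNAA, the interferon-stimulated response element (ISRE) as GAAA, 2 bases of any kind and GAAA, and the ER stress response element (ERSE) as CCAAT, 9 bases of any kind and CCACG. Windows of 60 bases are shown for the called genes of those lists that hold their element and changed most, with the matched letters in capitals. Each runs 5′ to 3′ on the strand of the gene, and a match in the opposite direction reads as the reverse complement.
CHAC1, chr15:40953236-40953295, plus strand, C/EBP-ATF element in the opposite direction: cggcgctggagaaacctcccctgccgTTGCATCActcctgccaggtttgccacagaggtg
ASNS, chr7:97872443-97872502, minus strand, C/EBP-ATF element: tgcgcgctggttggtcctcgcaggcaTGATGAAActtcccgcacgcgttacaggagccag
ATF3, chr1:212565190-212565249, plus strand, C/EBP-ATF element: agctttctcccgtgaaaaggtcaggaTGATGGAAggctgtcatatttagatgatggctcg
IFI6, chr1:27672251-27672310, minus strand, ISRE: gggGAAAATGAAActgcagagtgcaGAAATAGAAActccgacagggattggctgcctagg
CALR, chr19:12938364-12938423, plus strand, ERSE in the opposite direction: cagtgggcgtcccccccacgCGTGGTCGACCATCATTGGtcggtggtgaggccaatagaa
HSPA5, chr9:125241370-125241429, minus strand, ERSE: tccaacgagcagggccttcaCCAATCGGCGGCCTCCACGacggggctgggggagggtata

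The first base of the match lay 209, 68 and 191 bases before the start in CHAC1, ASNS and ATF3. The letters of the C/EBP-ATF element stood in 4 of the 20 promoters of ATF4 target genes called lower that were in the table (20.0%), and in 1.43% of the promoters of all tested genes. The ISRE letters stood in 48.6% of 37 promoters of tested interferon-stimulated genes and in 2.45% of all, and the ERSE letters in 14.3% of 49 promoters of the ER list and in 0.160% of all. Among all 1681 promoters of genes called lower, 2.50% held the C/EBP-ATF letters. They stood in 0 of 20 promoters of tested amino acid transporters and in 0 of 5 of serine and one-carbon enzymes called lower. A match describes the letters in the window and is not evidence of binding.

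Enzymes of serine synthesis and of mitochondrial one-carbon metabolism, which supply glycine and folate-bound carbon units, fell. Of 21 tested members of the serine, glycine and one-carbon list, 8 were called lower and 3 higher, with 1 higher without shCtr replicate 3 or without shSIRT3-2 replicate 1 and 5 higher without shCtr replicate 1. ALDH1L2, a mitochondrial formyltetrahydrofolate dehydrogenase, was at 221, 248 and 330.0 CPM with shCtr and 26.8, 27.9 and 26.6 CPM with shSIRT3-2 (log2 fold change -3.27 ± 0.14). PSAT1, the serine pathway aminotransferase, was at 368, 370.2 and 384 CPM with shCtr and 53.7, 57.2 and 55.8 CPM with shSIRT3-2 (log2 fold change -2.75 ± 0.07), and PSPH, the phosphatase of that pathway, was at 32.4, 33.3 and 32.2 CPM with shCtr and 6.70, 6.15 and 7.36 CPM with shSIRT3-2 (log2 fold change -2.26 ± 0.09). The replicates of PSAT1 and PSPH lay close together within each group. PHGDH, SHMT2 and MTHFD2 had log2 fold changes of -1.90, -1.52 and -1.51. In the other direction, MAT2A, which makes S-adenosylmethionine, and TYMS, thymidylate synthase, rose by 1.03 and 0.71 on that scale, and MTHFD1 and SHMT1 were not called (0.66 and 0.40).

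In the list of glutamine, asparagine, proline and arginine enzymes, 6 of 19 tested genes were called lower and 1 higher. Besides ASS1, these were led by GPT2, the mitochondrial alanine aminotransferase, at 139, 136 and 134 CPM with shCtr and 19.8, 20.1 and 16.6 CPM with shSIRT3-2 (log2 fold change -2.85 ± 0.09), and by ASNS, asparagine synthetase, at 269, 291 and 247 CPM with shCtr and 59.8, 59.97 and 61.3 CPM with shSIRT3-2 (log2 fold change -2.15 ± 0.08). GOT1, the cytosolic aspartate aminotransferase, and PYCR1, of proline synthesis, had log2 fold changes of -1.37 and -0.87. GLUD1, glutamate dehydrogenase, had a log2 fold change of -0.32 and was not called. ODC1, which starts polyamine synthesis, was the member called higher (log2 fold change 0.77).

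Of 23 tested amino acid transporters, 11 were called lower and 2 higher. SLC6A9, the glycine transporter GLYT1, was at 43.4, 44.5 and 48.8 CPM with shCtr and 3.60, 2.74 and 3.78 CPM with shSIRT3-2 (log2 fold change -3.73 ± 0.14). SLC7A11, the cystine and glutamate exchanger, was at 14.2, 16.0 and 9.68 CPM with shCtr and 2.89, 2.13 and 3.05 CPM with shSIRT3-2 (log2 fold change -2.25 ± 0.22), and SLC7A8, a neutral amino acid transporter, was at 2.77, 2.89 and 3.48 CPM with shCtr and 0.439, 0.524 and 0.723 CPM with shSIRT3-2 (log2 fold change -2.27 ± 0.20). The abundant transporters of leucine, glutamine and cationic amino acids fell less. SLC3A2 (CD98), SLC7A5 (LAT1), SLC1A5 and SLC7A1 had log2 fold changes of -1.03, -0.75, -0.96 and -0.68. The members called higher were SLC38A6 and SLC38A7, by 1.06 and 0.75.

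Falls in tRNA charging were among the cytosolic enzymes. Of 20 cytosolic aminoacyl-tRNA synthetases, 9 were called lower and 2 higher, with a median log2 fold change of -0.50, and after a correction for GC content and length 6 were called lower. After WARS, the largest falls were those of CARS, for cysteine, from 149.7, 145 and 119 CPM to 49.9, 45.9 and 48.0 CPM, and of SARS, for serine, from 258, 262 and 240.2 CPM to 105, 103 and 95.2 CPM. FARSA and VARS rose by 0.69 and 0.84 on the log2 scale. None of the 17 mitochondrial synthetases was called lower by limma, edgeR or DESeq2 (3 at an unadjusted p under 0.05), and 3 were called higher, MARS2, LARS2 and EARS2, with log2 fold changes between 0.59 and 0.83. Without replicate 3 of both groups 1 was called higher.

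Of 56 tested ER genes, 10 were called lower and 8 higher, where 18.6% and 9.24% of all tested genes were. ERN1 (IRE1), a sensor of unfolded proteins, was at 12.1, 15.7 and 20.9 CPM with shCtr and 4.17, 4.52 and 4.06 CPM with shSIRT3-2 (log2 fold change -1.88 ± 0.19). SEL1L, of the ER degradation machinery, was at 195, 245 and 250.1 CPM with shCtr and 97.4, 90.5 and 82.6 CPM with shSIRT3-2 (log2 fold change -1.34 ± 0.12). The transcription factor XBP1 and the degradation gene EDEM1 fell by 0.83 and 1.08 on the log2 scale. On the other side, CALR had a log2 fold change of 1.72 ± 0.08, adjusted p = 2.43e-05, and HSPA5 (BiP), SDF2L1, MANF and PDIA6 had log2 fold changes of 1.18, 1.32, 0.91 and 0.67. ATF6 and EIF2AK3 (PERK), the other sensors of the pathway, had log2 fold changes of -0.45 and 0.22 and were not called.

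Of 21 tested heat shock genes, mostly of cytosolic chaperones, 12 were called higher and none lower (1 lower at an unadjusted p under 0.05), with a median log2 fold change of 0.67. HSPA8 had a log2 fold change of 1.78 ± 0.15, adjusted p = 0.000207. FKBP4, a co-chaperone of HSP90, rose from 64.1, 57.1 and 51.8 CPM to 179, 189 and 165 CPM, and HSPE1, the mitochondrial chaperonin partner, from 6.92, 5.74 and 5.60 CPM to 15.02, 15.3 and 13.4 CPM. DNAJB1, HSPH1 and HSP90AA1 had log2 fold changes of 1.13, 0.79 and 0.64. The calls ranged from 10 to 14 higher over the alternatives.

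Genes of sterol synthesis rose, with 14 of 26 tested genes called higher and 2 lower (median log2 fold change 0.63). HMGCS1, an early enzyme of the mevalonate pathway, was at 59.9, 63.4 and 91.3 CPM with shCtr and 269, 279.6 and 250.3 CPM with shSIRT3-2 (log2 fold change 1.92 ± 0.16). MSMO1, of a later step, rose from 18.3, 19.3 and 30.0 CPM to 71.0, 70.1 and 64.2 CPM. The members that fell were SREBF1, the gene of the lipogenic factor SREBP-1, and TM7SF2 (log2 fold changes -0.89 and -0.63).

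In fatty acid synthesis, 3 of 12 tested genes were called higher and 1 lower. FASN, fatty acid synthase, was at 169, 140.1 and 149.9 CPM with shCtr and 435, 457 and 364 CPM with shSIRT3-2 (log2 fold change 1.45 ± 0.11), and it was not called when the 9 HBL1 libraries were fitted together (adjusted p = 0.0750). SCD, the desaturase, had a log2 fold change of 0.10 and was not called. In mitochondrial fatty acid oxidation, 3 of 19 were called lower and 1 higher, shares below those of all tested genes (18.6% and 9.24%). These were ECI1, ACADS and CPT2, at -1.58, -0.86 and -0.65 on the log2 scale, and ACAD9, which also assembles complex I, at 1.10.

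Lysosomal genes rose in number, with 19 of 47 tested called higher and 3 lower (median log2 fold change 0.45). NEU1, lysosomal sialidase, was at 17.8, 15.6 and 17.1 CPM with shCtr and 49.4, 42.3 and 52.6 CPM with shSIRT3-2 (log2 fold change 1.51 ± 0.11), and the membrane protein gene LAMP2 was at 44.4, 48.7 and 49.7 CPM with shCtr and 115, 96.5 and 148 CPM with shSIRT3-2 (log2 fold change 1.31 ± 0.15). Subunits of the proton pump were among the rises, with ATP6V1C1, ATP6V0D1 and ATP6V1A at 1.31, 1.09 and 0.81. The falls were AGA, at -1.599, GAA, acid alpha-glucosidase, at -1.31, and TFEB, the transcription factor of lysosomal genes, at -0.71.

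Of 38 tested autophagy genes, 8 were called lower, a share close to the 18.6% of all tested genes, and 1 higher. Without shCtr replicate 3, or without shSIRT3-2 replicate 1 or 2, 5 were called lower. ULK1, the kinase that starts autophagy, was at 19.7, 21.8 and 27.2 CPM with shCtr and 6.56, 6.38 and 9.70 CPM with shSIRT3-2 (log2 fold change -1.602 ± 0.19). The receptor gene CALCOCO2 (NDP52) fell from 62.2, 67.8 and 68.5 CPM to 31.2, 29.6 and 31.7 CPM. PIK3C3 (VPS34) and RB1CC1 (FIP200) fell by 0.78 and 0.83 on the log2 scale, and GABARAP was the member called higher, at 1.01.

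Antioxidant genes included 9 called higher and 3 called lower of 27 tested. TXN, thioredoxin, rose from 18.4, 15.03 and 11.7 CPM to 44.8, 41.6 and 50.1 CPM (log2 fold change 1.61 ± 0.17), and PRDX1, the peroxiredoxin that it recycles, had a log2 fold change of 1.502. NQO1, a target of NRF2, was at 0.741, 0.692 and 0.985 CPM with shCtr and 2.56, 1.40 and 9.96 CPM with shSIRT3-2, and like HMOX1 it was highest in replicate 3. SOD2, the mitochondrial superoxide dismutase that SIRT3 deacetylates, had a log2 fold change of 0.33 and was not called, and CAT, catalase, fell by 0.91 on the log2 scale.

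Of 76 nuclear genes of the respiratory chain and ATP synthase, 61 had a log2 fold change above 0. None of the 76 was called lower (6 at an unadjusted p under 0.05), where 18.6% of all tested genes were. Among them 14 were called higher, against 9.24% of all tested genes, and the median log2 fold change was 0.23. Without replicate 3 of both groups 9 were called higher, and without shCtr replicate 3 it was 7. NDUFB8 of complex I was at 34.0, 28.9 and 19.8 CPM with shCtr and 59.7, 58.9 and 53.5 CPM with shSIRT3-2 (log2 fold change 1.09 ± 0.19). COX7C of complex IV and NDUFA7 of complex I had log2 fold changes of 1.07 ± 0.14 and 0.91 ± 0.09. The control libraries of NDUFB8 themselves ranged from 19.8 to 34.0 CPM, with replicate 3 the lowest.

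In the TCA cycle and pyruvate list, 1 of 30 tested genes was called lower and 1 higher, and 2 were lower with the replicate block and without replicate 3 of both groups. SDHA, the flavoprotein subunit of succinate dehydrogenase, rose from 32.4, 28.9 and 26.2 CPM to 47.3, 45.1 and 49.2 CPM (log2 fold change 0.70 ± 0.10). PDK1, which inhibits pyruvate dehydrogenase, fell by 0.60 on the log2 scale and lost its call in 12 of the 20 alternatives. IDH2, a deacetylation target of SIRT3, was at -0.32 and was not called.

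Genes of glycolysis and the hypoxia response went both ways, with 5 of 34 tested called lower and 7 higher. The shares of all tested genes were 18.6% and 9.24%. VEGFA, the angiogenic factor that both hypoxia and ATF4 induce, was at 111, 119.8 and 152 CPM with shCtr and 22.4, 23.4 and 23.1 CPM with shSIRT3-2 (log2 fold change -2.46 ± 0.12). HIF1A fell by 0.65 on the log2 scale, and SLC2A3 (GLUT3) fell by 1.31. The enzymes LDHA, PGK1 and TPI1 rose by 0.91, 0.68 and 0.69, and ADM (adrenomedullin) rose by 1.45. Without replicate 3 of both groups 4 members were called higher, in place of 7.

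**Figure D4:**
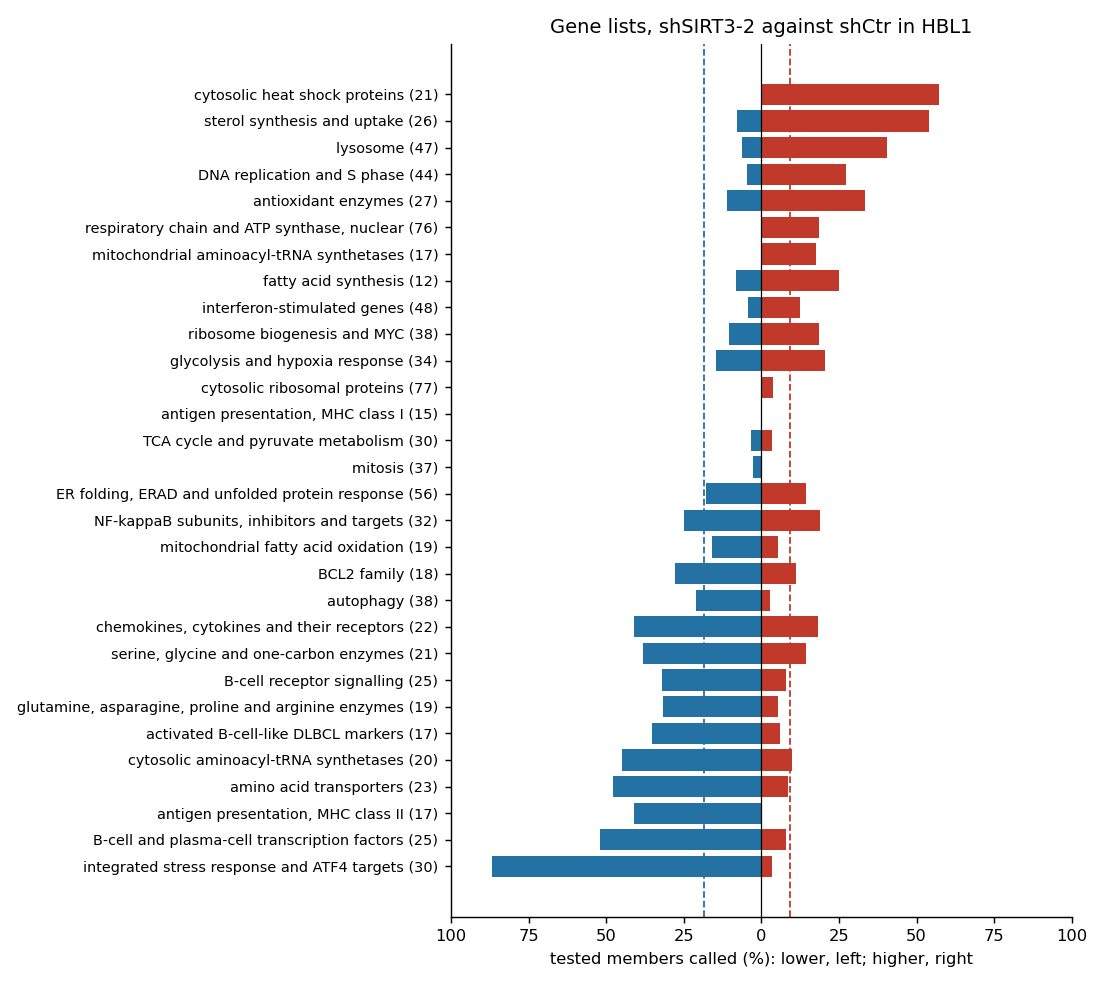
Percent of the tested members of each gene list described, where at least 10 were tested, that were called lower (bars to the left) or higher (bars to the right) with shSIRT3-2 in HBL1, with the number of tested members in brackets. The dashed lines mark the share of all tested genes called lower (18.6%) and higher (9.24%), and the ATF4 target list reaches 26 of 30 lower while cytosolic heat shock and sterol genes lead on the right.

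Transcription factors of B-cell identity fell. Of 25 tested B-cell and plasma-cell factors, 13 were called lower and 2 higher, with a median log2 fold change of -0.60. MEF2B was at 3.65, 4.48 and 5.58 CPM with shCtr and 0.351, 0.582 and 0.122 CPM with shSIRT3-2 (log2 fold change -3.49 ± 0.40). POU2AF1 (OCA-B), the B-cell coactivator of octamer factors, was at 355, 416 and 427 CPM with shCtr and 139.9, 175 and 90.0 CPM with shSIRT3-2 (log2 fold change -1.61 ± 0.23).

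Other regulators of B-cell identity fell too. PAX5, which holds B-cell identity, was at 561, 556 and 608 CPM with shCtr and 253, 304 and 265 CPM with shSIRT3-2 (log2 fold change -1.07 ± 0.09, adjusted p = 0.000211). BCL6, the germinal centre repressor, was at 180.1, 175 and 153 CPM with shCtr and 69.6, 72.0 and 61.7 CPM with shSIRT3-2 (log2 fold change -1.32 ± 0.10, adjusted p = 0.000131). IRF4, on which ABC lymphomas depend, was at 405, 388 and 343 CPM with shCtr and 169.8, 212 and 157 CPM with shSIRT3-2 (log2 fold change -1.08 ± 0.13, adjusted p = 0.000666). BACH2, IKZF3, IRF8 and FOXP1 had log2 fold changes of -1.57, -1.17, -0.87 and -0.64. PRDM1 (BLIMP1), the factor of plasma cells, was at 0.24 on that scale and was not called, and ID3, an inhibitor of E proteins, rose by 1.23.

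In B-cell receptor signalling, 8 of 25 tested genes were called lower and 2 higher, where 18.6% and 9.24% of all tested genes were. LAT2 (NTAL), an adaptor, was at 120.5, 127 and 107 CPM with shCtr and 17.4, 22.1 and 11.8 CPM with shSIRT3-2 (log2 fold change -2.83 ± 0.21). CD22, an inhibitory coreceptor, was at 38.4, 54.0 and 63.9 CPM with shCtr and 6.29, 12.6 and 4.55 CPM with shSIRT3-2 (log2 fold change -2.82 ± 0.36), and CR2 (CD21), the complement receptor, had a log2 fold change of -1.76. The kinase gene BLK fell by 1.16 on the log2 scale. The receptor chain CD79A rose, with a log2 fold change of 0.69 ± 0.15, its partner CD79B was not called (0.10), and the kinase BTK rose by 0.68. Of the 8 B-cell markers fixed for checking the cell type, 6 were called lower and only CD79A higher, while all 8 remained above 4 CPM in every knockdown library.

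Of 17 MHC class II genes, which present antigen to helper T cells, 7 were called lower and none higher (1 higher at an unadjusted p under 0.05), with a median log2 fold change of -0.47. CIITA, the coactivator that turns class II on, was at 35.1, 40.3 and 55.1 CPM with shCtr and 18.8, 21.4 and 17.6 CPM with shSIRT3-2 (log2 fold change -1.15 ± 0.17). HLA-DOA, a subunit of the modulator of class II peptide loading, was at 17.8, 18.4 and 27.6 CPM with shCtr and 8.65, 8.87 and 7.61 CPM with shSIRT3-2. Its partner HLA-DOB was at 1.56, 1.37 and 2.07 CPM with shCtr and 0.127, 0.333 and 0.0563 CPM with shSIRT3-2. HLA genes are polymorphic and alike, so reads may be divided among them. Of 15 MHC class I genes none was called by limma, edgeR or DESeq2, with 5 lower and 2 higher at an unadjusted p under 0.05. HLA-DRA, the alpha chain of HLA-DR, and B2M, the light chain of class I, were not called (-0.34 and 0.06).

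Of 48 tested interferon-stimulated genes, 39 had a log2 fold change above 0, and the median was 0.31, against -0.06 for all tested genes. Only 6 were called higher and 2 lower, where 9.24% and 18.6% of all tested genes were. IFI6, a mitochondrial antiviral protein, was at 79.3, 62.1 and 43.9 CPM with shCtr and 277, 202 and 239.7 CPM with shSIRT3-2 (log2 fold change 1.98 ± 0.22, adjusted p = 0.000498). DDX58 (RIG-I), a sensor of viral RNA, was at 18.4, 16.0 and 10.4 CPM with shCtr and 43.5, 33.8 and 29.6 CPM with shSIRT3-2 (log2 fold change 1.27 ± 0.23). The summed level of the list was 4673, 4560 and 3079 CPM in shCtr replicates 1 to 3 and 5881, 5191 and 4006 CPM in shSIRT3-2 replicates 1 to 3. Replicate 3 was thus the lowest of both groups, and each knockdown library was above the control library of its own number. With the replicate number as a block 16 members were called higher, and without replicate 3 of both groups 12 were. STAT2 and ISG20 were the members called lower (-0.61 and -0.68).

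Of 32 tested NF-kappaB genes, 8 were called lower and 6 higher, where 18.6% and 9.24% of all tested genes were. The lower calls numbered 14 without shCtr replicate 3 and 12 without replicate 3 of both groups. CCL3, CCL4 and TNF, described above, led the rises, followed by CD83 at 1.07. CCL22, TNFAIP2 and BCL3 led the falls, at -2.43, -2.41 and -1.99. The subunits NFKB1 and RELA were not called (-0.17 and 0.05). Of 22 tested chemokines, cytokines and their receptors, 9 were called lower and 4 higher. TNFRSF17 (BCMA), a receptor of plasma cells, fell from 52.96 to 9.61 CPM (means of 3), and the homing receptor gene CXCR5 fell from 216 to 100.8 CPM.

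Genes of DNA replication included 12 called higher and 2 called lower of 44 tested (median log2 fold change 0.40). CCNE2 (cyclin E2) was at 4.22, 4.51 and 4.48 CPM with shCtr and 15.1, 14.8 and 14.4 CPM with shSIRT3-2 (log2 fold change 1.72 ± 0.09, adjusted p = 4.67e-05). GINS1, of the replicative helicase, was at 18.9, 17.0 and 10.5 CPM with shCtr and 43.0, 42.8 and 38.7 CPM with shSIRT3-2, and FEN1, the flap endonuclease, was at 41.7, 36.9 and 23.9 CPM with shCtr and 91.3, 90.6 and 76.3 CPM with shSIRT3-2. In both, shCtr replicate 3 was well below the other controls, and without replicate 3 of both groups 7 members were called higher and 4 lower, and 6 were called higher without shCtr replicate 3. Of 37 mitosis genes 1 was called lower, CDC25C at -1.41, and none higher (4 at an unadjusted p under 0.05, 2 by edgeR and 6 by DESeq2), with 4 higher under the replicate block and 6 lower without replicate 3 of both groups.

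Of 18 tested BCL2 family genes, 5 were called lower and 2 higher, where 18.6% and 9.24% of all tested genes were. Without replicate 3 of both groups none was called higher. BCL2, the survival protein, was at 269, 292 and 292 CPM with shCtr and 112, 109 and 122 CPM with shSIRT3-2 (log2 fold change -1.32 ± 0.08, adjusted p = 6.21e-05). The family members BBC3 (PUMA), BMF and PMAIP1 (NOXA) fell as well, by 1.40, 1.13 and 0.96 on the log2 scale, and BAX and BID rose by 0.69 and 0.66.

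The remaining lists moved little or went both ways, apart from the sirtuins, of which 6 of 7 lay below control. Of 77 tested cytosolic ribosomal protein genes, 3 were called higher and none lower (3 at an unadjusted p under 0.05). The 3 called higher (RPS26, RPL7 and RPL21) lay under 4 CPM and may share reads with pseudogenes, which was not tested. Without replicate 3 of both groups 1 was called higher. Of 38 genes of ribosome biogenesis and the MYC network, 7 were called higher and 4 lower. The shares of all tested genes were 9.24% and 18.6%. Without replicate 3 of both groups 4 of the 38 were called higher. TXNIP, which restrains glucose uptake, was at 61.3, 82.5 and 114 CPM with shCtr and 12.8, 9.45 and 23.4 CPM with shSIRT3-2 (log2 fold change -2.55 ± 0.35), while MYC was at -0.16 and was not called. Of the 7 sirtuins, SIRT3, SIRT4, SIRT5 and SIRT6 were called lower, the last 3 by 1.36, 0.97 and 0.59 on the log2 scale, and after quantile normalization SIRT3 alone was. Leaving out shCtr replicate 2 or 3 or shSIRT3-2 replicate 1 or 2 left 2 sirtuins called lower. Of 5 tested replication-dependent histones, HIST1H2AC was called lower, at -1.63, with 2 lower under the replicate block and 3 without shCtr replicate 3.

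Of 60 tested small nucleolar and Cajal body RNAs, 50 were called higher. RN7SK, a small nuclear RNA without a poly(A) tail, was at 0.183, 0.896 and 0.919 CPM with shCtr and at 2.61, 1.25 and 11.8 CPM with shSIRT3-2. It was highest in shSIRT3-2 replicate 3. Other untailed RNAs overlapped between the groups, with RMRP at 0.173, 0.881 and 0.711 CPM with shCtr and at 0.517, 0.308 and 1.97 CPM with shSIRT3-2, and RPPH1 at 0.213, 0.597 and 0.482 CPM and at 0.508, 0.490 and 1.502 CPM. The recovery of untailed RNA by these libraries and its part in the rise of small RNAs was not tested.

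The first hairpin, shSIRT3-1, was measured in HBL1 against the same 3 control libraries, so likeness between the hairpins against control is not independent, and the hairpins were set against each other directly. SIRT3 was at 2.13, 2.39 and 2.00 CPM with shSIRT3-1, lower than with shSIRT3-2 (log2 difference 0.56 ± 0.15, adjusted p = 0.0208). Of 11862 genes tested, 1551 were lower (13.1%) and 1763 higher (14.9%) with shSIRT3-2 than with shSIRT3-1. That count depends on which replicates are kept. Leaving out replicate 1, 2 or 3 of each group, which leaves fewer libraries, gave 37, 1048 and 2948 calls. At an unadjusted p under 0.05 by limma there were 3544, 4155 and 7665 genes. Every called gene that could be tested kept its sign. The shSIRT3-1 replicate 3 library stood apart, with the 37 mitosis genes at 692 CPM in sum against 2026 and 2228 CPM in replicates 1 and 2.

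For ATF4, ATF5 and ASNS no difference between the hairpins was called. The log2 difference was 0.20 ± 0.13, adjusted p = 0.230 for ATF4, 0.04 ± 0.22, adjusted p = 0.886 for ATF5 and 0.40 ± 0.22, adjusted p = 0.160 for ASNS. ASS1 was likewise at 1.42, 1.17 and 0.693 CPM with shSIRT3-1 (log2 difference 0.26 ± 0.34, adjusted p = 0.558). Of the 30 tested ATF4 target genes, 27 were called lower against control with shSIRT3-1, where the median log2 fold change was -2.43. Between the hairpins, 10 of the 30 were higher and 4 lower with shSIRT3-2, where 14.9% and 13.1% of all genes were. KLHL24, an adaptor of a ubiquitin ligase, was the member that most separated the hairpins, at 49.6, 58.6 and 81.8 CPM with shCtr and 11.6, 10.5 and 20.7 CPM with shSIRT3-2 and at 64.8, 40.7 and 172 CPM with shSIRT3-1.

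Both rises and falls differed in part between the hairpins. Of the 1077 genes called higher, 430 were also called higher with shSIRT3-2 than with shSIRT3-1, and 15 lower. Of the 2174 called lower, 755 were lower with shSIRT3-2 than with shSIRT3-1, and 128 higher. Among all genes, 14.9% were higher and 13.1% lower. These genes were called from the same shSIRT3-2 libraries, so a difference in their own direction is partly fixed by the choice. CCL4 was at 1.40, 0.863 and 1.56 CPM and CCL3 at 2.18, 1.38 and 2.36 CPM with shSIRT3-1, and the log2 differences were 4.35 ± 0.37, adjusted p = 0.000272, and 4.07 ± 0.37, adjusted p = 0.000344. For TIMP1 (0.140, 0.131 and 0.0540 CPM) the log2 difference was 4.89 ± 0.35, adjusted p = 0.000125. RIMS3, among the largest falls with shSIRT3-2, was at 87.1, 109 and 129.8 CPM with shSIRT3-1 (log2 difference -3.47 ± 0.27, adjusted p = 0.000219). SIRT3 itself was lower with shSIRT3-1. SIRT4, called lower with shSIRT3-2, was at 1.09, 1.27 and 1.21 CPM with shCtr and 1.12, 1.32 and 1.23 CPM with shSIRT3-1. Its log2 difference between the hairpins was -1.39 ± 0.18, adjusted p = 0.00118 by limma. COL1A2 was at 12.6, 14.8 and 15.2 CPM with shCtr and 55.2, 36.8 and 62.0 CPM with shSIRT3-2 and at 4.92, 4.44 and 1.72 CPM with shSIRT3-1 (log2 difference 3.86 ± 0.36, adjusted p = 0.000397), and it lay above control with shSIRT3-2 and below control with shSIRT3-1.

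Some whole lists parted too, while others rose against control with both hairpins. With shSIRT3-1, 10 of 26 sterol genes were called higher than in the same controls and 0 lower. Of 47 lysosomal genes, 14 were called higher and 4 lower with shSIRT3-1. Of 48 interferon-stimulated genes, 33 were higher with shSIRT3-2 than with shSIRT3-1, where 14.9% of all genes were. Their median log2 fold changes against control were 0.31 and -0.83. Of 44 DNA replication genes 32 were higher with shSIRT3-2, with medians of 0.40 and -0.83, and of 37 mitosis genes 15 were higher, with medians of 0.12 and -1.30. With shSIRT3-1 replicates 1 to 3 the interferon list summed to 2972, 2489 and 1454 CPM and the DNA replication list to 2414, 2565 and 908 CPM. Replicate 3 was the lowest in both, and each shSIRT3-2 library lay above all 3. MHC class II parted the other way, with 11 of 17 lower with shSIRT3-2, where 13.1% of all genes were, and 2 higher. CIITA was at 51.4, 50.5 and 46.9 CPM with shSIRT3-1 (log2 difference -1.36 ± 0.16, adjusted p = 0.000803), and CD22 was at 59.4, 73.7 and 36.9 CPM (log2 difference -2.92 ± 0.38, adjusted p = 0.00123).

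**Figure D5:**
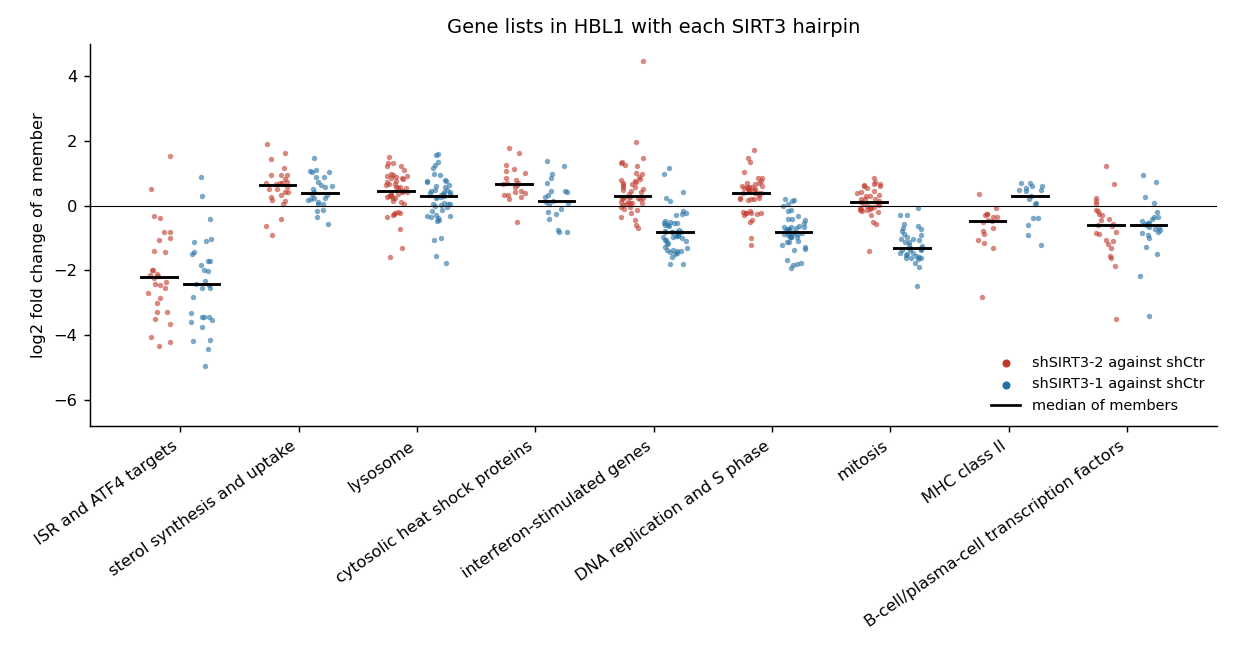
Log2 fold change of each tested member of 9 gene lists in HBL1, against the same 3 shCtr libraries, with shSIRT3-2 (red) and shSIRT3-1 (blue), and the median of the members as a black bar. The medians of the ATF4 target list lie at -2.21 and -2.43, those of the interferon list at 0.31 and -0.83 and those of the mitosis list at 0.12 and -1.30.

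To compare HBL1 with the other lines, the response to shSIRT3-2 in HBL1 was tested against the mean of the responses to the same hairpin in Karpas422 and OCI-Ly1, each against its own 3 controls. It differed in 2651 of 12888 genes tested (20.6%). This count too depends on which replicates are kept, with 250 genes without replicate 1 and 937 without replicate 2 of all groups. SIRT3 fell further in HBL1, with log2 fold changes of -2.14 in HBL1, -0.88 in Karpas422 and -1.08 in OCI-Ly1 (difference -1.16 ± 0.22, adjusted p = 0.00186). For ATF4 no difference was called, with -1.10, -1.49 and -0.50 (difference -0.10 ± 0.29, adjusted p = 0.835), and the same held for ATF5 (-2.37, -3.88 and -0.93), WARS, PSAT1 and ASNS. In each of these genes HBL1 lay between Karpas422, which fell further, and OCI-Ly1, which fell less. A contrast with the mean of those lines cannot show whether HBL1 responded like either.

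Of the 18 genes first named, 16 responded differently in HBL1 from the mean of the other lines, where 20.6% of all genes did. All but SIRT3 and ATF4 were named for their change in HBL1, so a larger response there is partly fixed by the choice. ASS1 had log2 fold changes of -5.61 in HBL1, -0.27 in Karpas422 and -0.61 in OCI-Ly1 (difference -5.18 ± 0.52, adjusted p = 8.11e-06). COLGALT2 had -0.50 in Karpas422 and -0.19 in OCI-Ly1 (difference -4.92), and CTNNA2 0.47 and -0.14 (difference -4.66). Among the rises, CCL3 had log2 fold changes of 3.83, -0.99 and 0.28 (difference 4.19 ± 0.46, adjusted p = 2.10e-05), FOS 3.57, -2.12 and 0.28 (difference 4.49 ± 0.66, adjusted p = 0.000258) and TNF 2.50, -1.16 and -1.45 (difference 3.80 ± 0.75, adjusted p = 0.00246). For TNF the log2 fold changes in the other lines were below 0.

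Among B-cell transcription factors, 11 of 25 responded lower in HBL1 and 1 higher. POU2AF1 had log2 fold changes of -1.61 in HBL1, -0.00482 in Karpas422 and 0.12 in OCI-Ly1 (difference -1.67 ± 0.25, adjusted p = 0.000335), and PAX5 -1.07, -0.87 and 0.28 (difference -0.78 ± 0.15, adjusted p = 0.00237). Of the 30 ATF4 target genes, 6 responded lower in HBL1 and 1 higher, near the share of all genes (20.6%), and the medians of the list were -2.21 in HBL1, -2.01 in Karpas422 and -0.79 in OCI-Ly1. Of the 26 sterol genes, 8 responded higher in HBL1 and 1 lower, with medians of 0.63, 0.22 and 0.10. Of the 76 respiratory chain genes, 13 responded higher in HBL1, a share no larger than that of all genes (20.6%). Of the 48 interferon-stimulated genes, 3 responded higher in HBL1 and 1 lower, also a smaller share than that of all genes. The medians of that list were 0.31 in HBL1, 1.09 in Karpas422 and 0.04 in OCI-Ly1, so it rose most in Karpas422. IFI6 had log2 fold changes of 1.98, 2.65 and -0.32 in these lines.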

How the data were processed

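RNA of HBL1 cells with shCtr or shSIRT3-2 was prepared with a TruSeq kit and sequenced paired-end. The authors aligned reads with STAR to hg19, assigned them to RefSeq genes with Rsubread and deposited 1 value per gene and library, named FPKM. In the deposited files each value was a whole multiple of 1 step per library whatever the gene's length, so the unit is CPM, scaled by the authors to a library total of which 43.9 to 45.1% fell on listed genes. Whole reads were recovered for 100% of values in the 6 libraries. The kit does not mark strand, so a gene and its antisense partner cannot be told apart.

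The main test was limma 3.58.1 with a variance trend on log2(CPM + 0.1), in R 4.3.3, with Benjamini-Hochberg adjustment over all 11659 genes with at least 1 CPM in at least 3 libraries. Calls needed a fold change above 1.5 and an adjusted p under 0.05. The hairpins were compared over 9 HBL1 libraries and the lines over 18, where an adjusted p under 0.05 was enough. edgeR 4.0.16 (quasi-likelihood) and DESeq2 1.42.0 on recovered reads, other scalings, filters and pseudocounts, a replicate block, left-out replicates and, added after seeing the data, a GC and length correction (11412 genes) and a fit without replicate 3 were alternatives. The scripts were tested on simulated data. There were 0 unused value columns in the tables used.

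Residuals of the shCtr and shSIRT3-2 libraries of the same number correlated at 0.451, 0.233 and 0.481. Across numbers, shCtr replicate 1 with shSIRT3-2 replicate 2 gave 0.33, and shCtr replicate 2 with shSIRT3-2 replicate 1 gave 0.34. Replicate 3 of each group correlated below 0 with replicates 1 and 2 of the other. Between shCtr and shSIRT3-2 the residuals thus set replicate 3 apart and do not tell replicates 1 and 2 apart as pairs. Between the hairpins, libraries of the same number correlated at 0.484, 0.446 and 0.518. There, shSIRT3-1 replicate 1 with shSIRT3-2 replicate 2 gave 0.342, and shSIRT3-1 replicate 2 with shSIRT3-2 replicate 1 gave 0.261. The main test and the comparison of the hairpins used no pairing, and a block by replicate number was run as an alternative. Pairing by number rests on the data, since the labels do not say what a number stands for. Blocked values stand beside counts that they move by over 1.5 times.

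Named were SIRT3, ATF4, the 8 largest falls and the 8 largest rises among called genes with at least 5 CPM in a group and no overlap of the groups, the 4 most abundant called genes in each direction, and the 3 called members of each list with the largest change. Other list members were chosen after their values were seen. The comparison and the lists were chosen with earlier results of these data known. Promoter sequences came from RefSeq (GRCh38.p14). The sequences of the hairpins were not used here. Results for some genes are not reported here.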

Additional observations from a re-analysis of the deposited data

Results flagged for a closer look

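The response of HBL1 to shSIRT3-2 differed from the mean response of Karpas422 and OCI-Ly1 in 2651 genes by limma at an adjusted p under 0.05. Of the 107 genes named by rule, 60 were among them, 35 with a lower and 25 with a higher response in HBL1. SIRT3 differed by -1.16 on the log2 scale, and the response of ATF4 was not called different. Of the 8 largest falls, 7 fell further in HBL1 than in the mean of the other lines. The differences were -5.18 for ASS1, -4.92 for COLGALT2, -4.66 for CTNNA2, -3.12 for DDIT4, -2.96 for RIMS3, -2.63 for SNTB1 and -1.89 for SYTL1. Some of these genes fell in another line too. DDIT4, RIMS3, SNTB1 and SYTL1 had log2 fold changes of -1.96, -2.59, -3.14 and -4.06 in Karpas422. In OCI-Ly1 they were at -0.45, -0.26, -0.37 and -1.61. All of the 8 largest rises stood higher in HBL1 than in that mean. The differences were 4.49 for FOS, 4.19 for CCL3, 3.89 for CCL4 and 3.80 for TNF. They were 2.77 for TIMP1, 2.63 for RHOBTB2, 2.35 for RSAD2 and 2.27 for TMEM2. RSAD2 had log2 fold changes of 2.85 in Karpas422 and 1.39 in OCI-Ly1, TIMP1 1.34 and 0.37, and RHOBTB2 -0.27 and 1.80. CCL4 had 0.16 and 0.04, and TMEM2 -0.19 and 0.69. These genes were named for their change in HBL1, so a larger response there is partly fixed by the choice. The part of the deeper fall of SIRT3 in HBL1 in these differences was not tested.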

How the results depend on the processing

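The counts of genes called lower and higher stayed within 1.5 times their values of 2174 and 1077 in the alternatives run. Pseudocounts of 1 and 0.01 gave 1837 and 2205 lower and 901 and 1094 higher, and leaving out 1 library at a time gave 1674 to 2289 lower and 866 to 1198 higher. Quantile normalization gave 1549 lower and 1541 higher, edgeR with TMM 1971 and 1351, DESeq2 2052 and 1384, and the GC and length correction 1860 and 1290, so that lower calls made up between 50.1% and 71.1% of all calls over the alternatives. With the replicate number as a block, which treats same-numbered libraries as pairs, 2265 were lower and 1136 higher, and 2173 of the 2174 genes called lower and all 1077 called higher kept their call. Without a filter 20796 genes were tested, of which 3126 were lower and 1270 higher. When 1 replicate number was left out of every group, which leaves fewer libraries, the genes called between shSIRT3-2 and shSIRT3-1 in HBL1 (3314) numbered from 37 to 2948, and the genes whose response to shSIRT3-2 differs between HBL1 and the other lines (2651) from 250 to 2033. Of the 107 named genes 90 kept their call in every alternative in which they were tested, and none changed direction. Genes near 0 in one group were not tested in some fits that left out a library of the other, where they no longer passed the filter. The block raised the interferon-stimulated genes called higher from 6 to 16 and the mitosis genes called higher from 0 to 4. Leaving out shCtr replicate 3 lowered the DNA replication genes called higher from 12 to 6 and the respiratory chain genes called higher from 14 to 7, and raised the NF-kappaB genes called lower from 8 to 14. The cause of these shifts was not tested. With 3 libraries a group, small changes of genes near 1 CPM may have been missed, and the power to find them was not tested.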
